A study of Mus musculus with 6 samples.

Results

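The genes described here encode the enzymes that cut the extracellular matrix and the inhibitors that hold them in check, measured in whole hearts of 15-day-old mice. Members were all protein-coding genes of the deposited table whose name begins with Mmp, Adam, Adamts or Timp followed by a number, or with Adamtsl, which gave 83 of 54532 genes. They comprise 22 Mmp, 33 Adam, 19 Adamts, 5 Adamtsl and 4 Timp genes. The 3 hearts labelled CKO came from mice with a cardiomyocyte-specific knockout of Nat10, and the 3 flox hearts came from Nat10flox/flox mice. Nat10 encodes an acetyltransferase that modifies cytidine in RNA. The Cre line, the promoter that drives it and the deleted exons are not stated in the labels. The study asks how NAT10 affects heart development.

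Matrix metalloproteinases (MMPs) are zinc enzymes, secreted or anchored in the cell membrane, that cleave collagens and other matrix proteins. ADAM proteins are membrane proteins, only some of which are proteases that release growth factors and receptors from the cell surface. The related ADAMTS enzymes are secreted and cut proteoglycans or trim procollagens. ADAMTS-like proteins lack the protease domain and sit in fibrillin microfibrils, and the TIMPs block the active site of MMPs and of some ADAM and ADAMTS enzymes. In the heart this system is known for remodelling the matrix during growth and after injury.

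Levels are FPKM, fragments scaled to gene length and to a size factor for each heart, so that they can be compared between genes. Recovered read totals ran from 15048038 to 16280061 per heart. The groups did not overlap along the leading principal component (64.0% of the variance), where CKO replicate 1 lay farthest out among the CKO-labelled hearts. Nat10 itself stood at 3.69, 3.75 and 4.18 FPKM in CKO-labelled hearts and at 3.87, 3.78 and 4.57 FPKM in flox hearts, and was not called (log2 change −0.06 ± 0.13, SE, limma adjusted p = 0.830). Other cells of a whole heart keep the gene, and a deletion of some exons need not remove its reads, so the labels are neither checked nor contradicted by it.

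Of the 83 members, 61 were above 0 in at least 3 hearts and were tested. Of the other 22, 17 were at 0 in all 6 hearts, and none of the 22 reached more than 0.0858 FPKM in any heart. Silent or nearly so were 9 Mmp genes that lie side by side on chromosome 9 (7272514 to 7699585, GRCm38), namely Mmp1b, Mmp3, Mmp7, Mmp8, Mmp10, Mmp12, Mmp13, Mmp20 and Mmp27. Mmp1b, Mmp7, Mmp10 and Mmp20 were at 0 throughout, and the highest value of the whole cluster was 1.16 FPKM, for Mmp3 in CKO replicate 1. The other 13 Mmp genes reached up to 83.0 FPKM.

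Promoter windows of 300 bases (250 before and 50 after the gene start, RefSeq, GRCm38.p6) differed in their letters between this cluster and the other Mmp genes. Both strands were searched for TGANTCA (N is any base), for TATAAA and for the GC box GGGCGG. The first is a looser form of the AP-1 core, TGAGTCA or TGACTCA, and is called the AP-1 letters here. The AP-1 letters were found in 7 of the 9 cluster genes and TATAAA in 8 of 9, while the GC box was in 0 of 9. In Mmp20, among those 7, the match was TGAATCA and so only the looser form. Among the 8 other Mmp genes with a window, the AP-1 letters were in 0, TATAAA in 1 and the GC box in 7. Over all 32851 windows the shares were 7.81%, 13.6% and 35.7%, in that order of motifs. Windows of 2 cluster genes are printed with that of Mmp14, an expressed membrane-type enzyme, with matches to any of the 3 motifs in capitals. They lie at chr9:7445572-7445871 (Mmp3, plus strand), chr9:7272264-7272563 (Mmp13, plus strand) and chr14:54431348-54431647 (Mmp14, plus strand).
Mmp3: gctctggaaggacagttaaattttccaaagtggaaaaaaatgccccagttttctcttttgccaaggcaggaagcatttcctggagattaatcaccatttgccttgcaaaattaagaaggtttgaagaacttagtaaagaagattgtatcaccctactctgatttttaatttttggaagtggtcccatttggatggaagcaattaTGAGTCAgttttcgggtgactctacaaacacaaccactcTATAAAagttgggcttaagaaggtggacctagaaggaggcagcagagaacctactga
Mmp13: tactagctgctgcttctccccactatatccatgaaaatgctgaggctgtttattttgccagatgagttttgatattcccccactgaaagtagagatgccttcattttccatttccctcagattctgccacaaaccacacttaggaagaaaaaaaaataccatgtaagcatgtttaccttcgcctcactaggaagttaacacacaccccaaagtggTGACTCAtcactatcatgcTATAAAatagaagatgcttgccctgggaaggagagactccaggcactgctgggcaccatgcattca
Mmp14: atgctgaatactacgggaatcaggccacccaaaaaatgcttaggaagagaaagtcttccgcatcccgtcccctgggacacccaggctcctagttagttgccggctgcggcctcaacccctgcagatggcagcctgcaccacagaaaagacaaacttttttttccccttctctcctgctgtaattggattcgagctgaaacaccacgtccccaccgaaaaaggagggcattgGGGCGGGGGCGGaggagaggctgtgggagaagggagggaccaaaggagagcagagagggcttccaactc
The AP-1 letters began at position −46 in Mmp3 and −35 in Mmp13, with the gene start at 0, each followed by TATAAA. Mmp14 had neither, and 2 GC boxes stood in its window. Of the 8 called genes, 5 had a window in the table, with the AP-1 letters in 0 and the GC box in 5 of them. These are matches of letters only.

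In the comparison of CKO-labelled with flox hearts, 8 of the 61 tested members were called at a Benjamini-Hochberg adjusted p under 0.05 (limma on log2(FPKM + 1), fitted over 22363 genes). The called share of all genes tested was 5.5%, against 13.1% of the members. Mmp14, Adamts8, Adamts20, Adamts2, Adamtsl2, Adamtsl5 and Adam9 rose, 7 members where 2.62% of all genes were called higher. Adamts7 alone fell, where 2.88% of all genes were called lower. The median log2 change of the tested members was 0.01, beside −0.00 over all genes tested; it was 0.10 with TPM and 0.15 with voom, beside 0.06 and 0.12 over all genes. The groups did not overlap for 21 of the 61 members, 12 of them higher and 9 lower, where 30.7% of all genes did not overlap. Without CKO replicate 3 or flox replicate 2 limma called no member (18 and 16 had an unadjusted p under 0.05), and without flox replicate 1 only Adamtsl2 was. With a minimum mean of 1 FPKM, Adamts7, Mmp15, Mmp11 and Adamtsl3 were called lower, 4 in all, and 7 were called higher, with Mmp23 among them and Adamts20 below the minimum. Calls of lower members also moved with other settings, from 0 to 3.

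**Figure D1:**
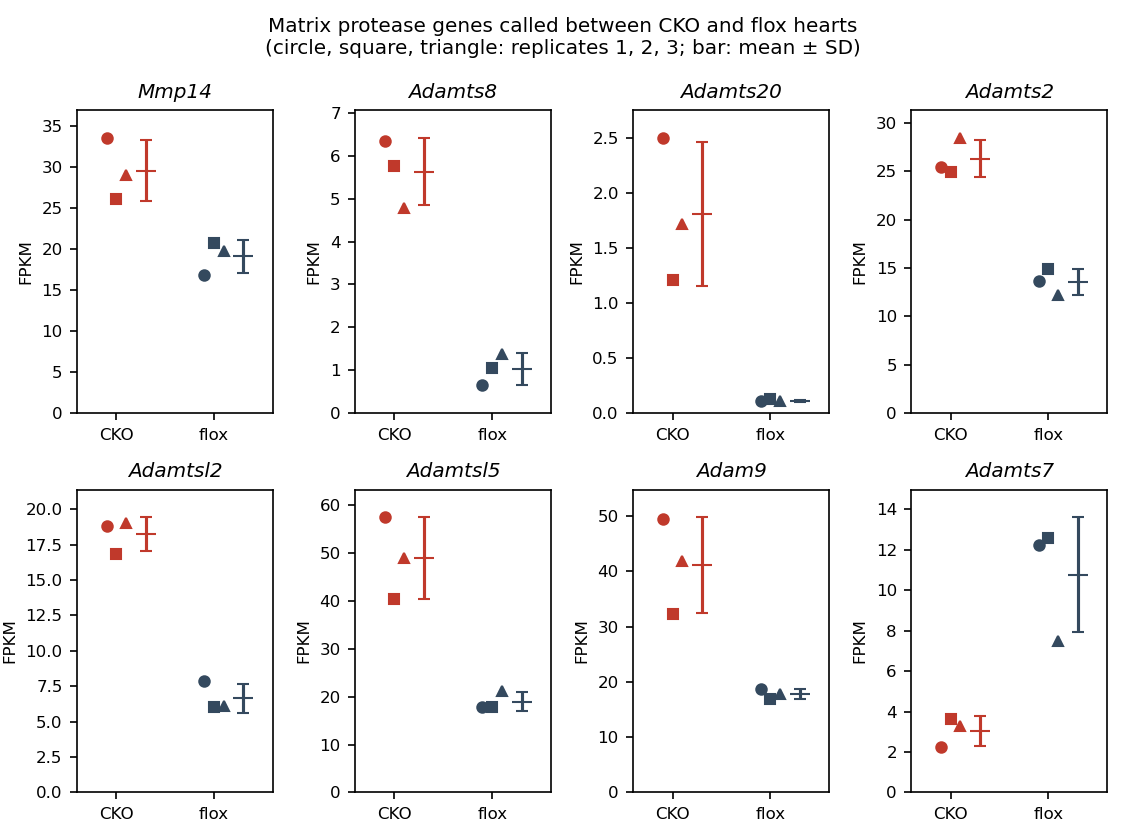
FPKM (vertical axes, each from 0) of the 8 called members in the 3 CKO-labelled hearts (red, left) and the 3 flox hearts (dark, right), with bars for the mean ± SD. In each panel the points of the groups do not overlap; Adamts7 is the only gene with all CKO-labelled hearts below all flox hearts.

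Whole hearts mix cell types, so fewer cells of a type and less RNA per cell cannot be told apart in any of these values. Of 12 fibroblast markers 4 rose (Col1a1, Col1a2, Tcf21 and Postn) and 8 were not called. Those 8 were Mfap5 (log2 change 1.39), Col3a1 (0.59), Dcn (0.34), Lum (0.24), Ddr2 (0.03), Dpt (−0.03), Pdgfra (−0.12) and Gsn (−0.16). By limma 6 of the 12 had an unadjusted p under 0.05, and the median log2 change was 0.47. The list, to which the collagens and Postn gave much of the total, summed to 1267 to 1670 FPKM in CKO-labelled hearts against 862 to 1124 FPKM in flox hearts. Of 12 cardiomyocyte markers Tnnt2 fell, and their sum was 14126 to 15131 FPKM in CKO-labelled hearts against 18715 to 23617 FPKM in flox hearts. Macrophage markers summed to 147 to 262 FPKM in CKO-labelled hearts and 117 to 138 FPKM in flox hearts, and limma called 0 of the 12 (5 had an unadjusted p under 0.05). Abcc9 and Vtn fell among 11 mural-cell (smooth muscle or pericyte) markers (sum 467 to 536 FPKM in CKO-labelled hearts, 604 to 761 FPKM in flox hearts). Acta2 and Rgs5 gave much of that sum. The 9 not called went both ways: Cnn1 (log2 change 1.56), Tagln (0.53), Cspg4 (0.17), Myh11 (−0.03), Rgs5 (−0.16), Notch3 (−0.16), Pdgfrb (−0.19), Kcnj8 (−0.28) and Acta2 (−0.74). Of 12 endothelial markers Vwf rose and 11 were not called (sum 513 to 598 FPKM in CKO-labelled hearts, 577 to 651 FPKM in flox hearts). Most of those not called were lower: Emcn (log2 change 0.16), Eng (0.09), Cldn5 (0.01), Pecam1 (−0.11), Esam (−0.16), Egfl7 (−0.20), Flt1 (−0.25), Tek (−0.34), Kdr (−0.41), Tie1 (−0.42) and Cdh5 (−0.47). The median log2 change of the 12 was −0.18. Of 9 markers of epicardium and nerve S100b rose at a low level (log2 change 0.60 ± 0.12, SE, limma adjusted p = 0.0410), and the list summed to 7.35 to 9.68 FPKM in CKO-labelled hearts against 5.24 to 6.06 FPKM in flox hearts. Neutrophil and mast cell markers summed to 9.42 to 17.4 FPKM in CKO-labelled hearts and 9.90 to 13.8 FPKM in flox hearts, with 0 of 6 tested past the threshold of limma and 0 at an unadjusted p under 0.05. No marker of these 7 lists was at 0 in all hearts, and their part in the results was not tested.

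Among the membrane-type MMPs, Mmp14 rose while Mmp15 had its lower values in the CKO-labelled hearts. Mmp14 (ENSMUSG00000000957, chr14:54431612-54445364) encodes MT1-MMP, which cuts fibrillar collagen and activates the MMP2 precursor with the help of TIMP2. It had 33.6, 26.1 and 29.1 FPKM in CKO-labelled hearts and 16.8, 20.7 and 19.7 FPKM in flox hearts. Every CKO-labelled heart was above every flox heart, by a mean ratio of 1.55 (log2 change 0.60 ± 0.13, SE, limma adjusted p = 0.0490). This call stood just inside the threshold and was lost without any single heart (adjusted p 0.0537 to 0.183). Mmp15, which encodes the second membrane-type enzyme, MT2-MMP, had 20.6, 45.5 and 32.8 FPKM in CKO-labelled hearts and 68.1, 62.4 and 59.9 FPKM in flox hearts. All CKO-labelled hearts were below all flox hearts, yet the gene was not called (log2 change −0.99 ± 0.26, limma adjusted p = 0.0786), except with a minimum mean of 1 or 5 FPKM, with counts or without CKO replicate 2. The ratio of Mmp15 to Mmp14 was 0.615, 1.74 and 1.13 in CKO-labelled hearts, against 4.05, 3.01 and 3.04 in flox hearts. That ratio was formed after the values were seen and carries no test. Mmp16, Mmp17, Mmp24 and Mmp25 each stayed under 1 FPKM in every heart and were not called.

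The most abundant protease of the set, Mmp2, had nearly the same mean in both groups. Mmp2 encodes gelatinase A, which digests denatured collagen and basement membrane. Its level was 78.8, 57.1 and 74.6 FPKM in CKO-labelled hearts and 69.4, 83.0 and 56.2 FPKM in flox hearts, with full overlap. The log2 change was 0.02 ± 0.19 with a 95% interval from −0.43 to 0.46 (limma adjusted p = 0.969). Mmp9, the other gelatinase, reached at most 0.378 FPKM in a CKO-labelled heart and 0.465 FPKM in a flox heart, or 6 to 23 reads per heart, and was not called (limma adjusted p = 0.963).

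Of the remaining MMPs, 3 others had at least 1 FPKM on average. Mmp23, whose product has a cysteine-rich tail in place of the hemopexin domain, had 18.8, 11.3 and 12.8 FPKM in CKO-labelled hearts and 4.52, 8.34 and 4.58 FPKM in flox hearts. All CKO-labelled hearts were higher, but the adjusted p missed the threshold (log2 change 1.18 ± 0.27, limma adjusted p = 0.0535), and the gene passed in 9 alternative fits. Mmp11, or stromelysin-3, an MMP activated by furin inside the cell, had 3.12, 2.61 and 2.64 FPKM in CKO-labelled hearts and 4.66, 5.27 and 4.03 FPKM in flox hearts (limma adjusted p = 0.0641); it was singled out after its values were seen. The gene shares 155 exon bases with Chchd10 on the other strand, a gene at a mean of 137 FPKM, and no source used here says whether strand was counted. Mmp28, epilysin, averaged 2.98 ± 0.264 FPKM in CKO-labelled hearts and 2.59 ± 0.584 FPKM in flox hearts (SD, n = 3 each) and was not called. It shares 466 exon bases with 1700020L24Rik on the other strand, at a similar mean of 2.79 FPKM, so its reads are uncertain.

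**Figure D2:**
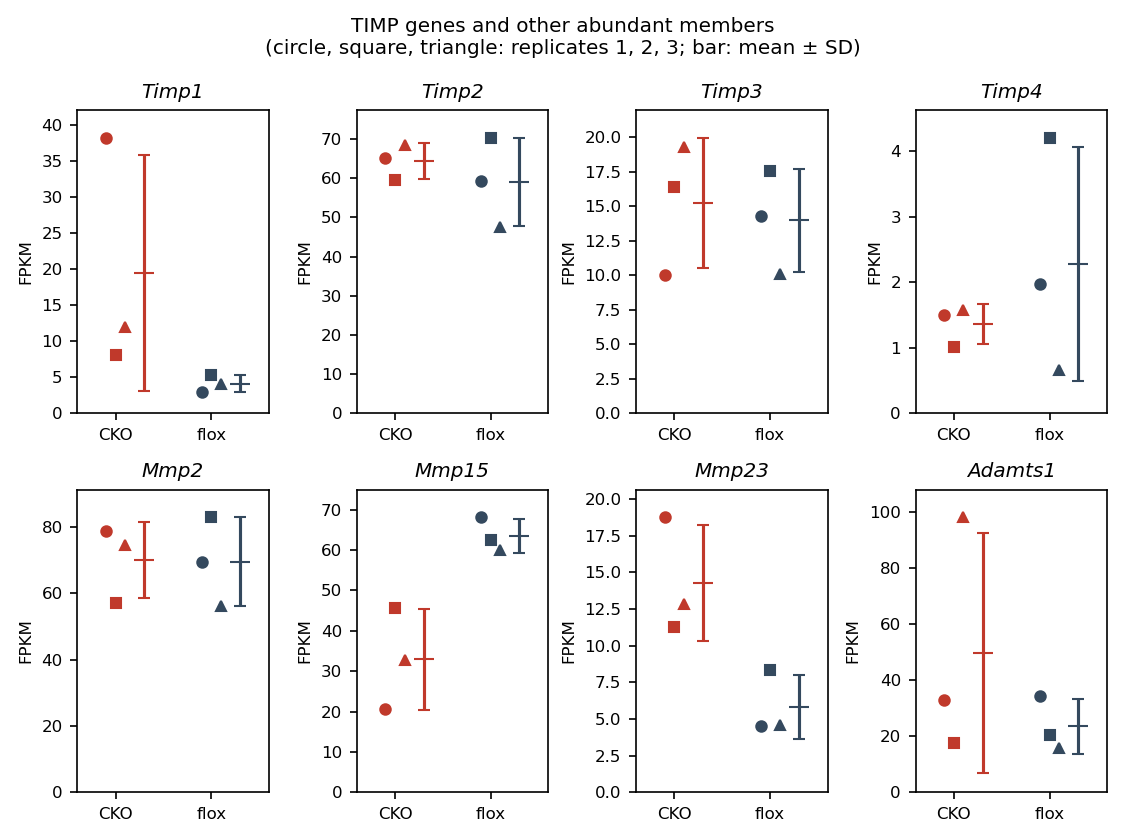
FPKM (vertical axes, each from 0) of the 4 Timp genes, Mmp2, Mmp15, Mmp23 and Adamts1 in the CKO-labelled hearts (red, left) and the flox hearts (dark, right), with bars for the mean ± SD. Timp1, Mmp15 and Mmp23 have groups that do not overlap, while the spread of Timp1 comes from CKO replicate 1 at 38.3 FPKM and that of Adamts1 from CKO replicate 3 at 98.3 FPKM.

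Limma called 0 of the 4 Timp genes, and 1, Timp1, had an unadjusted p under 0.05. Timp1 was called by limma with a minimum mean of 5 FPKM (adjusted p = 0.0400) and by voom on recovered counts (adjusted p = 0.0490). Timp1 (ENSMUSG00000001131, chrX:20870166-20874735), the inducible member of the family, had 38.3, 8.09 and 12.0 FPKM in CKO-labelled hearts and 2.90, 5.25 and 3.98 FPKM in flox hearts. All CKO-labelled hearts were above all flox hearts, with CKO replicate 1 more than 3 times as high as either of the others. The log2 change was 1.75 ± 0.52 (limma adjusted p = 0.102) and 1.14 without CKO replicate 1 (adjusted p = 0.0780). Timp2, the most abundant inhibitor and a partner of MMP14 in MMP2 activation, had 65.2, 59.6 and 68.5 FPKM in CKO-labelled hearts and 59.2, 70.2 and 47.7 FPKM in flox hearts (log2 change 0.14 ± 0.16, limma adjusted p = 0.642). Timp3, which binds to the matrix and also blocks ADAM17, averaged 15.2 ± 4.73 FPKM in CKO-labelled hearts and 14.0 ± 3.75 FPKM in flox hearts (SD, n = 3 each; limma adjusted p = 0.862). Timp4, the inhibitor best known from heart tissue, had 1.49, 1.01 and 1.58 FPKM in CKO-labelled hearts and 1.96, 4.20 and 0.660 FPKM in flox hearts (limma adjusted p = 0.669). The 95% intervals of the log2 change ran from −0.23 to 0.51 for Timp2, −0.55 to 0.76 for Timp3 and −1.27 to 0.61 for Timp4. Changes within those ranges were thus not excluded.

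Summed over the family, the Timp genes had 115, 85.1 and 101 FPKM in CKO-labelled hearts and 78.4, 97.3 and 62.4 FPKM in flox hearts, which overlap. The Mmp genes summed to 161, 149 and 159 FPKM in CKO-labelled hearts and 168, 186 and 149 FPKM in flox hearts, which overlap too. The ratio of the Mmp sum to the Timp sum was 1.40, 1.75 and 1.57 in CKO-labelled hearts and 2.15, 1.91 and 2.38 in flox hearts. Here the groups did not overlap, as was so for 30.7% of all genes tested. Timp1, which was not called, enters that ratio: it made up 33.3%, 9.51% and 11.9% of the Timp sum in CKO-labelled hearts and 3.70%, 5.40% and 6.38% in flox hearts. With Timp1 left out of the Timp sum, the groups overlapped in the ratio. Sums over a chosen list are given as descriptions of messenger RNA, with no test.

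**Figure D3:**
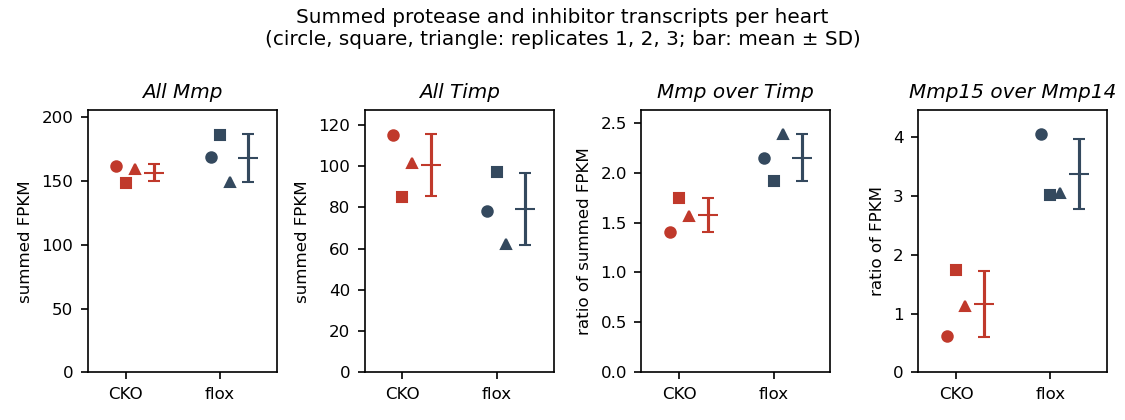
Summed FPKM of all Mmp and all Timp genes, their ratio, and the ratio of Mmp15 to Mmp14 (vertical axes from 0) in each CKO-labelled heart (red, left) and flox heart (dark, right), with bars for the mean ± SD. The sums overlap between groups, while both ratios are lower in every CKO-labelled heart than in any flox heart. With Timp1 left out of the Timp sum, the ratio of Mmp to Timp overlaps between groups (not drawn). No test was run on the sums or ratios.

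The ADAMTS enzymes held 4 of the 8 calls. Adamts8 and Adamts20 belong to the 7 genes of hyalectan-cleaving enzymes, those related to the aggrecanases that cut versican and aggrecan; 2 of these 7 rose and 5 were not called. Adamts8 (ENSMUSG00000031994, chr9:30942562-30963838) had 6.35, 5.75 and 4.79 FPKM in CKO-labelled hearts and 0.651, 1.05 and 1.38 FPKM in flox hearts. The lowest CKO-labelled heart was above the highest flox heart, and the means differed 5.49-fold (log2 change 1.72 ± 0.18, limma adjusted p = 0.0103). Adamts20 (ENSMUSG00000022449, chr15:94270163-94465418), known in mice from the belted coat mutation, had 2.50, 1.20 and 1.72 FPKM in CKO-labelled hearts and 0.111, 0.124 and 0.106 FPKM in flox hearts. In reads these were 376, 178 and 245 in CKO-labelled hearts and 14, 17 and 16 in flox hearts, a 15.9-fold difference in mean FPKM (log2 change of FPKM + 1 1.31 ± 0.17, limma adjusted p = 0.0165). It was thus near the floor in flox hearts and low but clear of it in all 3 CKO-labelled hearts.

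Adamts1, the most abundant ADAMTS gene and a versicanase, varied within the CKO group. It had 33.0, 17.5 and 98.3 FPKM in CKO-labelled hearts and 34.6, 20.4 and 15.9 FPKM in flox hearts (log2 change 0.76 ± 0.60, limma adjusted p = 0.501). CKO replicate 3 stood alone. The same heart had the highest Thbs1 (160 FPKM, against 45.4 and 16.3 FPKM in CKO replicates 1 and 2). Thbs1 had 12.0, 12.0 and 8.59 FPKM in flox hearts and was not called (limma adjusted p = 0.144). It was singled out after its values were seen. Adamts4, Adamts5, Adamts9 and Adamts15 lay between 1.37 and 5.38 FPKM in every heart and were not called. The reads of Adamts4 are uncertain.

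Of the 3 genes for procollagen N-proteinases, which remove the amino-terminal propeptide of fibrillar procollagens, Adamts2 rose. Adamts2 (ENSMUSG00000036545, chr11:50602084-50807573) had 25.4, 24.9 and 28.4 FPKM in CKO-labelled hearts and 13.6, 14.8 and 12.2 FPKM in flox hearts. The groups were well apart and the mean was 1.94-fold higher in CKO-labelled hearts (log2 change 0.91 ± 0.11, limma adjusted p = 0.0140). Adamts3, which acts on the lymphatic growth factor VEGF-C, averaged 1.11 ± 0.494 FPKM in CKO-labelled hearts and 1.94 ± 0.271 FPKM in flox hearts (SD, n = 3 each) and was not called (limma adjusted p = 0.203). Adamts14 averaged 2.20 ± 0.396 FPKM in CKO-labelled hearts and 2.59 ± 0.844 FPKM in flox hearts and was not called either.

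Adamts7 was the member that fell. Adamts7 (ENSMUSG00000032363, chr9:90163069-90208071) encodes an enzyme that cuts cartilage oligomeric matrix protein and is known from vessel walls. It had 2.23, 3.64 and 3.30 FPKM in CKO-labelled hearts and 12.2, 12.6 and 7.48 FPKM in flox hearts. Every CKO-labelled heart was below every flox heart, at a mean ratio of 0.284 (log2 change −1.52 ± 0.23, limma adjusted p = 0.0218). The gene shares 122 exon bases with Tbc1d2b on the other strand, at a mean of 4.26 FPKM. Adamts10, a fibrillin-binding enzyme and the most abundant of this remaining subgroup, averaged 23.1 ± 1.93 FPKM in CKO-labelled hearts and 19.3 ± 1.65 FPKM in flox hearts (SD, n = 3 each; limma adjusted p = 0.229). Adamts6, Adamts12, Adamts16, Adamts17, Adamts18 and Adamts19 were tested and not called, and Adamts13 was at 0 in every heart.

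The ADAMTS-like genes split, with 2 of 5 risen and 3 not called. Adamtsl2 (ENSMUSG00000036040, chr2:27079379-27108981), whose product binds fibrillin-1 and latent TGF-beta binding protein, had 18.8, 16.8 and 19.0 FPKM in CKO-labelled hearts and 7.84, 6.01 and 6.10 FPKM in flox hearts. Values within each group were close together, and the means differed 2.74-fold (log2 change 1.34 ± 0.13, limma adjusted p = 0.00893). Adamtsl5 (ENSMUSG00000043822, chr10:80339110-80348412), another fibrillin-binding protein, had 57.5, 40.5 and 49.0 FPKM in CKO-labelled hearts and 17.8, 17.9 and 21.2 FPKM in flox hearts. It was the more abundant of the pair and 2.58-fold higher in mean (log2 change 1.31 ± 0.15, limma adjusted p = 0.0129). Adamtsl3, singled out after its values were seen, had 0.888, 1.48 and 1.20 FPKM in CKO-labelled hearts and 3.04, 2.48 and 2.06 FPKM in flox hearts (limma adjusted p = 0.0686). Adamtsl4, which takes part in anchoring fibrillin fibres of the eye, had 10.3, 11.0 and 11.1 FPKM in CKO-labelled hearts and 22.0, 26.1 and 9.75 FPKM in flox hearts. Flox replicate 3 overlapped the CKO-labelled hearts, and Adamtsl4 was called only without that heart (log2 change −1.08, limma adjusted p = 0.0228, against −0.68 and 0.268 with all 6 hearts). Adamtsl1 stayed under 1 FPKM.

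**Figure D4:**
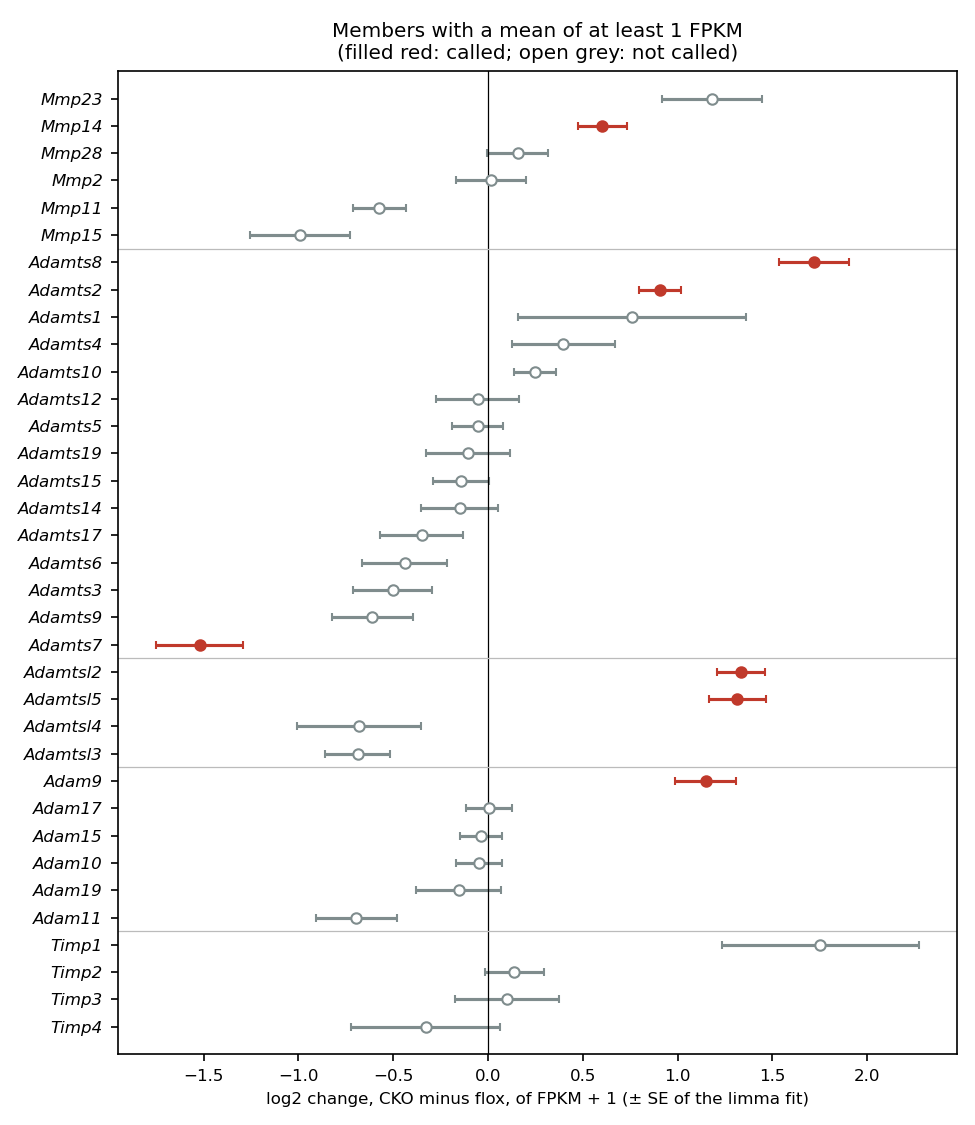
Log2 change of FPKM + 1, CKO minus flox (horizontal axis, ± SE of the limma fit), for the 35 members with a mean of at least 1 FPKM, grouped from top to bottom as Mmp, Adamts, Adamtsl, Adam and Timp genes. Filled red points are the 7 called genes of that level; the called Adamts20 lies just under 1 FPKM and is not drawn.

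Among the ADAM genes, Adam9 rose and the main sheddases did not pass the test. Adam9 (ENSMUSG00000031555, chr8:24949611-25016927), a widely expressed membrane protease, had 49.5, 32.2 and 41.8 FPKM in CKO-labelled hearts and 18.7, 16.8 and 17.8 FPKM in flox hearts. It was 2.32-fold higher in mean in CKO-labelled hearts (log2 change 1.15 ± 0.16, limma adjusted p = 0.0185). Adam10, the sheddase of Notch receptors, had 15.4, 19.3 and 19.2 FPKM in CKO-labelled hearts and 19.3, 16.9 and 19.5 FPKM in flox hearts (log2 change −0.05 ± 0.12, limma adjusted p = 0.854). Adam9 was thus 3.20, 1.67 and 2.18 times the level of Adam10 in CKO-labelled hearts, and 0.967, 0.998 and 0.912 times in flox hearts. This ratio carries no test and restates the rise of Adam9 beside the overlapping values of Adam10. Adam17, which releases tumour necrosis factor and ligands of the EGF receptor, averaged 8.24 ± 0.827 FPKM in CKO-labelled hearts and 8.20 ± 0.754 FPKM in flox hearts (log2 change 0.01 ± 0.12, 95% interval −0.28 to 0.29, limma adjusted p = 0.986). Adam15 (17.8 ± 2.02 FPKM in CKO-labelled hearts, 18.2 ± 0.668 FPKM in flox hearts) and Adam19 (17.5 ± 5.03 FPKM in CKO-labelled hearts, 19.1 ± 2.63 FPKM in flox hearts) were not called (SD, n = 3 each). Adam17 shares 311 exon bases with Iah1 on the other strand, at a similar mean of 7.49 FPKM, so its reads are partly uncertain. Of the 12 ADAM genes outside the testis and reproductive-tract group, 11 were tested, 1 rose and 10 were not called, and 6 averaged at least 1 FPKM. The 21 ADAM genes known from testis and the reproductive tract were silent or nearly so: 12 were at 0 in all hearts, 7 were tested, and the highest value was 0.622 FPKM, for Adam1a.

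Genes that act with the members by function were counted as a second list of 75, of which 69 were tested. Of those, 9 rose and 1 fell, 59 missed the threshold, and their median log2 change was 0.21. Over all genes tested 5.5% were called, 2.62% higher and 2.88% lower, and the median was −0.00. The list was chosen with earlier results of these data known. Among shed ligands and receptors, 4 of 12 rose: Hbegf, Tgfa and Nrg1, ligands of the EGF receptor family, and Ace, the angiotensin-converting enzyme. Hbegf had 75.2, 21.6 and 49.9 FPKM in CKO-labelled hearts and 8.25, 9.38 and 6.69 FPKM in flox hearts (log2 change 2.30 ± 0.42, limma adjusted p = 0.0325). Tgfa had 1.88, 1.44 and 1.82 FPKM in CKO-labelled hearts and 0.165, 0.294 and 0.286 FPKM in flox hearts (1.12 ± 0.12, limma adjusted p = 0.0101). For both ligands the groups were apart, while the sheddase Adam17 gave overlapping values. Nrg1 had a log2 change of 0.61 ± 0.11 and Ace one of 1.20 ± 0.13.

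Substrates and microfibril partners of the ADAMTS enzymes held 2 rises among 7 tested genes, where 2.62% of all genes were called higher. Vcan, the proteoglycan versican, had 10.2, 7.78 and 11.6 FPKM in CKO-labelled hearts and 2.90, 2.99 and 3.37 FPKM in flox hearts (log2 change 1.39 ± 0.16, limma adjusted p = 0.0127). Ltbp2, a fibrillin-binding protein, had 12.1, 11.6 and 9.22 FPKM in CKO-labelled hearts and 0.655, 1.86 and 1.02 FPKM in flox hearts (2.49 ± 0.22, limma adjusted p = 0.00800). Each of these genes was higher in all 3 CKO-labelled hearts than in any flox heart. Fbn1, fibrillin-1 itself, was not called (0.57 ± 0.16, limma adjusted p = 0.0899).

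Of the procollagen-processing genes, Pcolce, an enhancer of the carboxy-terminal proteinase, rose (log2 change 0.95 ± 0.16, limma adjusted p = 0.0268), and Bmp1, that proteinase, was not called (0.17 ± 0.11). Tll2, a relative of Bmp1, fell at a low level, with 0.0521, 0.247 and 0.0367 FPKM in CKO-labelled hearts and 0.727, 0.496 and 0.678 FPKM in flox hearts. In plasminogen activation, Serpine2, an inhibitor of thrombin and plasminogen activators, rose (1.01 ± 0.18, limma adjusted p = 0.0335). Tspan33, a tetraspanin partner of ADAM10, rose at a low level (0.27 ± 0.05). The lists of cathepsins, serine proteases, other regulators and proprotein convertases had 0 genes past the adjusted threshold of limma, though 2, 2, 4 and 2 of their genes had an unadjusted p under 0.05; their most abundant genes were Cst3, Htra1, Bsg and Pcsk6. The number of calls in the whole list was 21 with voom on recovered counts, 1 without CKO replicate 3 or flox replicate 2, 2 without flox replicate 1 and 6 without flox replicate 3.

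**Figure D5:**
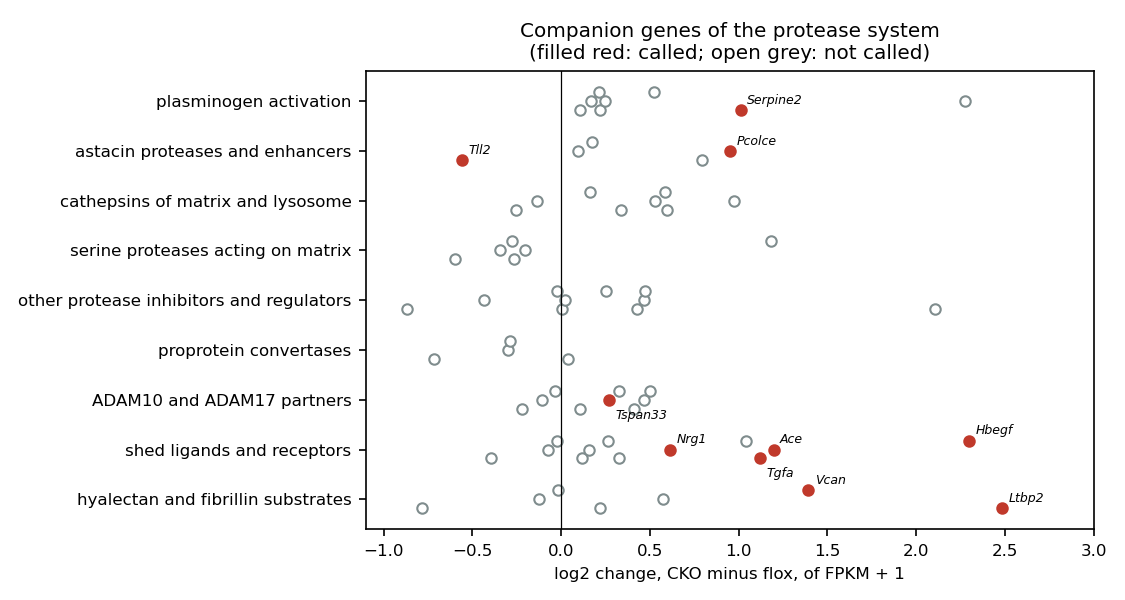
Log2 change of FPKM + 1, CKO minus flox (horizontal axis), of each tested gene that acts with the matrix proteases, by function (rows). Filled red points are the 10 called genes, 9 of them right of 0 and Tll2 left of it.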

How the data were processed

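Messenger RNA of 6 whole mouse hearts (3 CKO, 3 flox, independent biological replicates per the labels' protocols) was sequenced as paired ends. Per the series text and the submitters' processing notes, reads were aligned to GRCm38 with HISAT2 2.0.5 and counted with featureCounts 1.5.0-p3. The authors deposited FPKM values per gene and heart, with gene positions and lengths. Multiplied by gene length, 100% of values above 0 were whole reads (tolerance 0.01) once divided by a single factor for each heart, and the factors matched median-of-ratios size factors, so the deposited values are already scaled between hearts. Read totals recovered this way limit precision for low genes.

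Genes above 0 in at least 3 of 6 hearts were fitted on log2(FPKM + 1) with limma 3.58.1 (R 4.3.3; empirical Bayes with a mean-variance trend, two-sided, Benjamini-Hochberg), which understates changes of low genes. A call is an adjusted p under 0.05. For 3 hearts against 3 an exact permutation test cannot go below 0.1. The members and lists were chosen with earlier results of these data known. Named are Nat10, the Timp genes, called members, members averaging at least 5 FPKM, Mmp2, Mmp9, Mmp14, Adam10, Adam17 and Adamts1, and called genes of the second list or, in a list with none, the most abundant. Others are given with their subgroup. Bmp1, Fbn1 and Thbs1 of the second list are named outside this rule. Exon overlaps were taken from GENCODE M21, and promoter windows from RefSeq (GRCm38.p6), which held 52 of the 83 members. Alternatives were other pseudocounts and filters, TPM, quantile normalization, no trend, robust moderation, voom on the recovered counts, a replicate block and each heart left out. The procedure was tested on simulated data.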

Additional observations from a re-analysis of the deposited data

How the results depend on the processing

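The replicate block, the filters, voom and the left-out hearts moved counts of calls; the cause was not tested. Leaving out 1 heart gave 0 to 8 called members, 0 to 6 higher and 0 to 2 lower, 1 to 13 called genes of the second list and 60 to 1017 of all genes (60 without CKO replicate 3 or flox replicate 1, 67 without flox replicate 2, 729 without CKO replicate 1). Members lower were 4 with a mean of at least 1 FPKM, 2 with a mean of at least 5 FPKM, 3 with protein-coding rows only, 2 without a mean-variance trend and 3 with voom on recovered counts, against 1 as reported. Genes called in the second list were 5 without a filter and 21 with voom, against 10, and all genes called were 641 without a filter and 2204 with voom, against 1229. With the replicate block 0 members (0 higher, 0 lower), 0 of the second list and 0 of all genes were called by limma (16 members and 25 genes of the second list at an unadjusted p under 0.05). Deviations of same-numbered hearts from their group means had correlations of −0.28, −0.14 and −0.19. Within a group of 3 hearts such deviations sum to 0, so these values cannot decide whether the numbers pair the hearts.

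Voom moved the median of all genes to 0.12 on the log2 scale. Both voom and TPM scaled each heart to its own total, without the median-of-ratios size factors of the deposited values. Calls were 1419 higher and 785 lower with voom and 1075 higher and 531 lower with TPM, against 585 higher and 644 lower as reported. Signs of changes near 0 turned: with TPM and voom, Nat10 (0.065 and 0.068), Adam10 (0.0891 and 0.0885) and Adam15 (0.10 and 0.10); with quantile normalization, Mmp2 (−0.045) and Adam17 (−0.0012). When 1 heart was left out, log2 changes ranged from −0.10 to 0.013 for Nat10, −0.13 to 0.16 for Mmp2, −0.0618 to 0.14 for Mmp9, −0.11 to 0.0522 for Adam10, −0.0963 to 0.0534 for Adam15, −0.0632 to 0.0733 for Adam17, −0.30 to 0.095 for Adam19, −0.00371 to 0.27 for Timp2, −0.0989 to 0.36 for Timp3, −0.74 to 0.0806 for Timp4. Outside the replicate block and the left-out hearts, the calls of Adamts8, Adamts20, Adamts2, Adamtsl2, Adamtsl5, Adam9 and Adamts7 held in each alternative that tested them. The call of Mmp14 was lost without a filter (adjusted p = 0.0713), without the trend (0.0523) and with robust moderation (0.0577). Read depth limits the low genes, such as Mmp9.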
